A study of Mus musculus with 15 samples.

Results

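Ribosome biogenesis factors are the proteins that make, modify, fold and assemble the subunits of the ribosome, and 46 genes of this kind were chosen by name from the 55536 annotated genes in the count tables. They fall into 6 roles: 4 nucleolar chaperones, 4 genes of RNA polymerase I and its partner treacle, 3 core proteins of box C/D small nucleolar ribonucleoproteins (snoRNPs), 4 core proteins of box H/ACA snoRNPs, 15 factors of the small (40S) subunit and 16 factors of the large (60S) subunit. The cells were OT-I CD8+ T cells, whose single T cell receptor recognises the ovalbumin peptide SIINFEKL, and which came from Rag-deficient donor mice and had been transferred into wild-type C57BL/6J recipients. Recipients were given the peptide with rat IgG as control antibody (Ag, 5 libraries) or the peptide with agonist antibodies against the costimulatory receptors OX40 (CD134) and 41BB (CD137) (Ag+Costim, 5 libraries). Both antibodies were given together, so their effects cannot be told apart. Transferred cells were sorted from spleen and lymph nodes on day 4 by the labels (the study's methods give a slightly shorter time), and each library was 1 mouse. Counts of the 5 labelled Naive libraries were not analysed here.

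Ribosomes are made in the nucleolus, where RNA polymerase I copies the ribosomal DNA into 1 long precursor RNA. Small nucleolar RNAs guide chemical modification of that RNA, with the methyltransferase fibrillarin acting in box C/D particles and the pseudouridine synthase dyskerin acting in box H/ACA particles. Large sets of processing and assembly factors then cleave the precursor and fold it into the 2 subunits. T cells that leave rest enlarge their nucleoli and raise ribosome production before they divide, and many of the genes described here are known targets of Myc.

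The sequenced libraries held estimated counts of 59.6 to 449.4 M (mega) in Ag and 332.3 to 639.1 M in Ag+Costim, and these totals come from coverage, so they are not read numbers. The 5 Ag+Costim libraries were alike, and the 5 Ag libraries were not. Between 20714 and 51778 genes had a count in Ag against 28727 to 30340 in Ag+Costim, and Ag 2 and Ag 5 had the fewest (21779 and 20714). Markers of CD8+ T cells were abundant in all 10 libraries, with the values of 10 genes summing to 6876 to 13942 CPM in Ag against 9381 to 11336 CPM in Ag+Costim (CPM are counts scaled to a common library total), and Cd8a lay at 346 CPM or more in every library. Erythroid, B cell, NK cell and CD4 T cell markers reached higher sums in some Ag libraries than in any Ag+Costim library, and myeloid markers did not. The summed level of 6 erythroid genes was 14.7 to 1103 CPM in Ag against 3.803 to 39.8 CPM in Ag+Costim, that of 8 B cell genes was 649 to 1230 CPM and 518 to 771 CPM, that of 8 myeloid genes was 51.6 to 150 CPM and 83.4 to 181 CPM, that of 4 NK cell genes was 9.31 to 36.6 CPM and 6.44 to 12.7 CPM, and that of 4 CD4 T cell genes was 3.74 to 26.4 CPM and 3.16 to 8.20 CPM. Most of the B cell sum was Ighm, and the defining B cell gene Pax5 was at 0 in at least 1 Ag library and at most at 4.92 CPM.

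All 46 biogenesis factors were measured above the filter on low counts, and the fitted log2 fold change of Ag+Costim over Ag was above 0 for all 46. That background was 37.7% of the 24262 genes tested and 75.6% of the 8626 genes with a mean of at least 10 CPM, a level that all 46 factors exceeded. The median log2 fold change of the factors was 0.65, against -0.32 over all genes tested and 0.24 over genes at 10 CPM or more. The range ran from 0.14 (Nop10) to 1.78 (Npm3). In edgeR's quasi-likelihood test none of the 46 passed a Benjamini-Hochberg (BH) adjusted p of 0.05, and neither did any other gene (0% of genes tested). The lowest adjusted p among the factors was 0.117, for Npm3. At an unadjusted p under 0.05, 23 of 46 factors were higher and 0 lower, against 7.89% of all genes tested and 20.2% of genes at 10 CPM or more that were higher.

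For 13 of the 46 factors all 5 Ag+Costim libraries lay above all 5 Ag libraries, a pattern seen in 4.48% of all genes and 11.3% of genes at 10 CPM or more. This number was 7 with upper-quartile scaling, 24 without the filter on low counts and 24 without Ag 5, and the 13 named below are those of TMM scaling. The 13 were Npm3, Ncl, Polr1a, Tcof1, Nop58, Heatr1, Wdr43, Utp15, Nat10, Tsr1, Rrp12, Nop2 and Rrp1b. No factor showed the opposite separation. DESeq2's Wald test, run as an alternative, called 12 of the 46 higher at an adjusted p under 0.05 (3.19% of all genes, 8.27% of genes at 10 CPM or more) and none lower. These were the same 13 genes apart from Polr1a. Limma's voom with a quality weight per library, which gave weights of 0.0986 and 0.0656 to Ag 2 and Ag 5 and of 0.508 to 3.35 to the other 8, called all 46 higher (25.8% of all genes, 57.7% of genes at 10 CPM or more). Without Ag 2 and Ag 5, an alternative added after the data had been seen, edgeR called all 46 higher (17.9% of the 33480 genes then tested, 61.2% of those at 10 CPM or more) and none of the 46 overlapped between groups (18.7% and 61.1%), with a median log2 fold change of 1.26. Ag 2 and Ag 5 were the 2 highest Ag libraries for 39 of the 46, so leaving them out nearly fixed this separation, and it is no independent support.

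**Figure D1:**
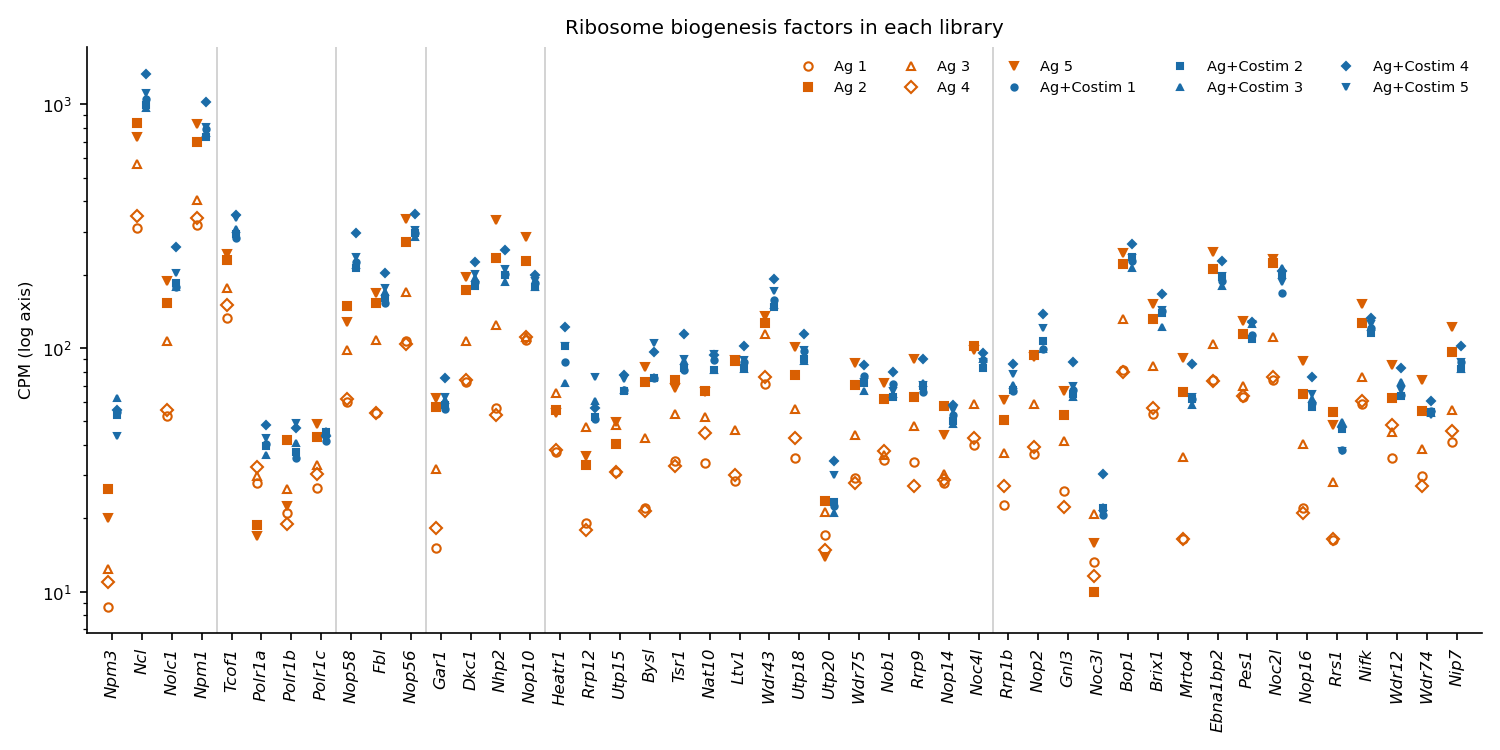
CPM on a log axis (vertical) of the 46 ribosome biogenesis factors (horizontal, ordered by role and fold change) in each library, with orange symbols for Ag (filled for Ag 2 and Ag 5), blue symbols for Ag+Costim and grey lines between the 6 roles. Ag 1 and Ag 4 lay below every Ag+Costim library for all 46 factors, whereas Ag 2 and Ag 5 reached the Ag+Costim range for many.

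**Figure D2:**
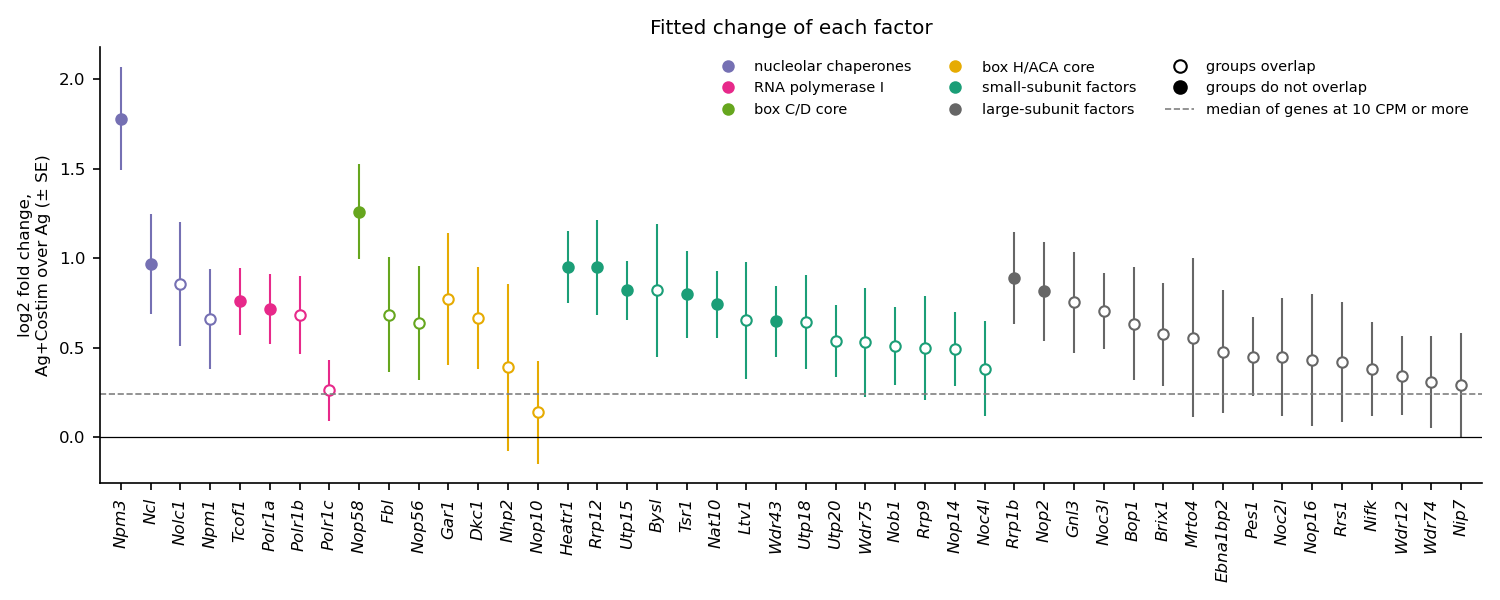
Fitted log2 fold change of Ag+Costim over Ag (vertical, with its standard error) for each of the 46 factors, coloured by role, with filled points where the groups did not overlap (13 factors). All points lie above 0, and the dashed line is the median of 0.24 over genes at 10 CPM or more.

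The promoter sequences of 4 of the 13 factors without overlap are shown here to place the genes and because Myc and its relatives bind the E-box, CACGTG, which reads the same on both strands. RefSeq promoters (GRCm38.p6, 250 bases before to 50 after the start site) were matched for 40 of the 46 factors, 44 promoters in all, and Bop1, Fbl, Rrp12, Rrs1, Npm1 and Tcof1 had no entry. CACGTG stood in a promoter of 7 of the 40 (17.5%), namely Wdr43, Utp18, Utp20, Tsr1, Ltv1, Pes1 and Nop2, against 8.09% of the 27025 genes with a promoter sequence. By promoter it was 7 of 44 against 7.15% of 32851. The related CACGCG (or CGCGTG on the other strand) stood in those of 11 of the 40 (27.5%), against 10.5% of all genes. These backgrounds were not limited to expressed genes, whereas all 40 factors exceeded 10 CPM. The shares over genes at 10 CPM or more were not counted, so no excess over expressed genes can be read from them. Pes1 had both. Of the 13 factors without overlap, Nop2, Tsr1 and Wdr43 had the CACGTG match, and these 3 are printed with it in capitals, beside the promoter of Npm3, the gene with the largest fold change, in which these letters do not occur. The Nop2 match began 60 bases upstream of the start site, the Tsr1 match 24 bases and the Wdr43 match 17 bases downstream of it. A match is a description of letters and not a measured binding site.
Nop2, chr6:125131633-125131932, plus strand: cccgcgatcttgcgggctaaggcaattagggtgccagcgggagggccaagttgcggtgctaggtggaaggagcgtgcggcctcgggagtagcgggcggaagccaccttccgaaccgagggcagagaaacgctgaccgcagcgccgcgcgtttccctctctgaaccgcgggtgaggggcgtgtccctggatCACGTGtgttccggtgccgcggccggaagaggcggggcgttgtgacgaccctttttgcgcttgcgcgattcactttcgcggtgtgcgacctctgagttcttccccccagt
Tsr1, chr11:74897830-74898129, plus strand: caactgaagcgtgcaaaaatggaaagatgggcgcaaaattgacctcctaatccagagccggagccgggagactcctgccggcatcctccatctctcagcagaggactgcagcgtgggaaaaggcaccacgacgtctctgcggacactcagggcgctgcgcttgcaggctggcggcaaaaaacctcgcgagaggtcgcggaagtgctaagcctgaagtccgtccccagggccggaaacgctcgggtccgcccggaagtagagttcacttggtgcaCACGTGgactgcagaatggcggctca
Wdr43, chr17:71615965-71616264, plus strand: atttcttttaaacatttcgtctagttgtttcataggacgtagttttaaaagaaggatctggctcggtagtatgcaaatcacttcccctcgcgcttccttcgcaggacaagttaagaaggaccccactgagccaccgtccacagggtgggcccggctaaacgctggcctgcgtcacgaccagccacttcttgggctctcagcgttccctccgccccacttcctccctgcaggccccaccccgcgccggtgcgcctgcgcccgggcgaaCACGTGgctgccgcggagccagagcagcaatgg
Npm3, chr19:45749516-45749815, minus strand: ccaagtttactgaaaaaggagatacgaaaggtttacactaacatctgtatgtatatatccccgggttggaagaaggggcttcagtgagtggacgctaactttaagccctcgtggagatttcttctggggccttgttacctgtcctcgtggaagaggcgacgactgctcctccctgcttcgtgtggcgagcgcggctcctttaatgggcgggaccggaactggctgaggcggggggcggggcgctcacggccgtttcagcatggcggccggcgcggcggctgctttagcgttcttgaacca

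Most factors shared 1 order of the Ag libraries. Ag 1 and Ag 4 were the 2 lowest Ag libraries for 40 of 46 factors, and Ag 2 and Ag 5 the 2 highest for 39. Ag 1 and Ag 4 lay below every Ag+Costim library for all 46 factors, and Ag 1, Ag 3 and Ag 4 together did so for 44. The share of all genes with these orders was not counted. Without Ag 2 and Ag 5, all Ag+Costim libraries lay above the other Ag libraries in 61.1% of genes at 10 CPM or more. The mean log2(CPM + 1) over the 46 factors was 5.36, 6.47, 5.95, 5.40 and 6.59 in Ag 1 to Ag 5, and 6.62, 6.62, 6.62, 6.91 and 6.73 in Ag+Costim 1 to 5. The groups did not overlap on this mean (5.95 ± 0.58 and 6.70 ± 0.13, SD, n = 5 each), and Ag 2 and Ag 5 came close to the Ag+Costim range. The coefficient of variation between libraries had a median of 44.0% over the 46 factors in Ag (22.5% to 75.8%) and of 11.2% in Ag+Costim (4.22% to 21.8%). Together the 46 genes took 0.353%, 0.540%, 0.458%, 0.332% and 0.545% of the unscaled counts in Ag 1 to Ag 5 and 0.607%, 0.593%, 0.586%, 0.719% and 0.635% in Ag+Costim 1 to 5, without overlap.

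Other gene lists differed between the same libraries. The mean log2(CPM + 1) of 20 cell cycle genes was 6.01, 8.996, 8.29, 6.11 and 9.09 in Ag 1 to Ag 5 and 8.98 to 9.28 in Ag+Costim. Ag 1 and Ag 4 were thus low for the cell cycle genes as well as for the biogenesis factors. Ag 2 and Ag 5 lay inside the Ag+Costim range for the cell cycle genes, but below it for the mean of the biogenesis factors. Mean B cell marker levels ran the other way, at 4.66, 2.37, 5.81, 5.03 and 2.29 in Ag and 2.35 to 3.18 in Ag+Costim. Mean erythroid marker levels were 3.54, 2.095, 6.07, 2.44 and 1.48 in Ag and 0.64 to 2.43 in Ag+Costim. The part of cell division, or of RNA from other cells, in the level of the biogenesis factors was not tested, and in sorted bulk cells fewer cells with a transcript and fewer transcripts per cell cannot be told apart.

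**Figure D3:**
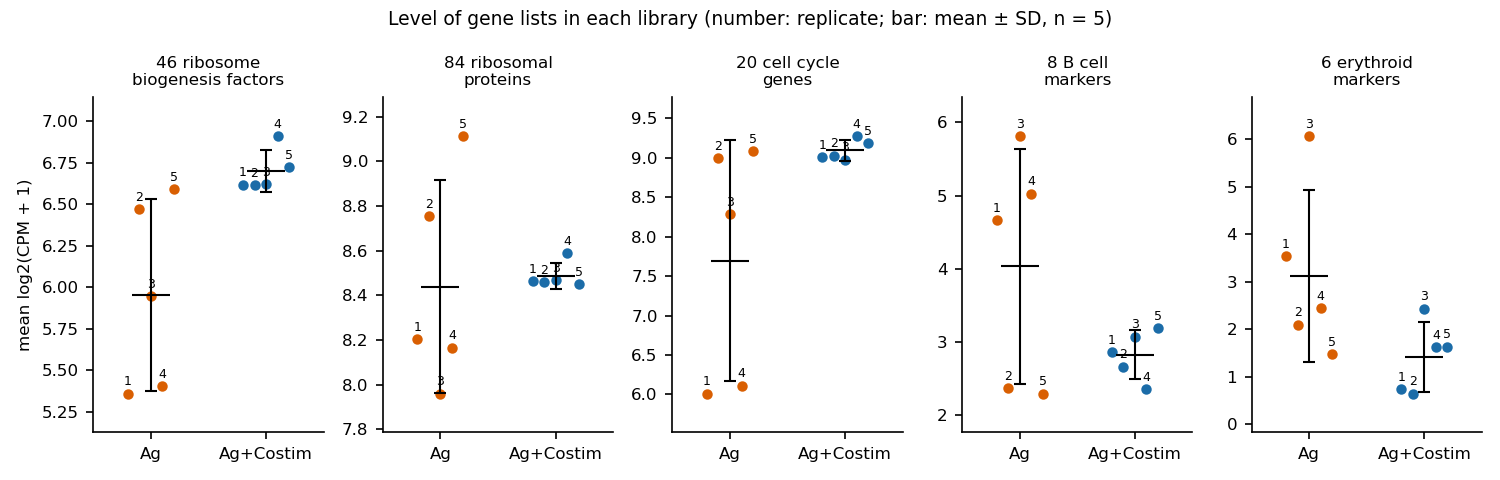
Mean log2(CPM + 1) (vertical, a separate axis for each panel that does not start at 0) of 5 gene lists in each Ag (orange) and Ag+Costim (blue) library, numbered by replicate, with mean and SD. Ag 1 and Ag 4 were lowest for the biogenesis factors (5.36 and 5.40) and for the cell cycle genes (6.01 and 6.11), and Ag 3 was highest for the B cell and erythroid markers.

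Ribosomal protein genes, whose products the factors assemble, had a median log2 fold change near 0. Of 84 protein-coding genes of cytosolic ribosomal proteins, 83 were tested, 35 had a log2 fold change above 0 and 48 below, and the median was -0.04. Voom with library weights gave a median of 0.27 and called 47 of the 83 higher and 3 lower (57.7% of genes at 10 CPM or more were called higher). Their mean log2(CPM + 1) was 8.20, 8.75, 7.96, 8.17 and 9.11 in Ag and 8.45 to 8.59 in Ag+Costim. Subtracting it from the mean of the biogenesis factors within each library gave -2.84, -2.28, -2.01, -2.76 and -2.52 in Ag and -1.85, -1.84, -1.84, -1.68 and -1.72 in Ag+Costim. This within-library difference, which library scaling barely touches, did not overlap between the groups (-2.48 ± 0.34 and -1.79 ± 0.08, SD, n = 5 each), and on it Ag 2 and Ag 5 lay on the side of the other Ag libraries. The ribosomal protein genes are shorter (median transcript length 815 bases, against 2725 bases for the factors), and levels in Ag 2 and Ag 5 went with transcript length, as given further on, and the part of length in this difference was not tested.

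Among the nucleolar chaperones, Npm3 separated the groups most widely of the 46 factors. Npm3 is a nucleoplasmin-family partner of nucleophosmin. Its level was 8.67, 26.3, 12.4, 10.9 and 19.99 CPM in Ag 1 to Ag 5 and 54.3, 53.3, 62.4, 55.5 and 43.4 CPM in Ag+Costim 1 to 5. The lowest Ag+Costim library lay well above the highest Ag library, and the ratio of the means was 3.44 (15.7 ± 7.30 and 53.8 ± 6.79 CPM, SD, n = 5 each). Its fitted log2 fold change of 1.78 ± 0.29 (SE) had a BH adjusted p of 0.117 in edgeR and of 3.71e-08 in DESeq2. Ncl encodes nucleolin, an abundant nucleolar protein that binds precursor ribosomal RNA. It was at 310, 838, 567, 347 and 731 CPM in Ag and at 1051, 995, 964, 1334 and 1116 CPM in Ag+Costim, also without overlap, with a log2 fold change of 0.97 ± 0.28 (SE). Npm1, nucleophosmin itself, was at 321, 699, 405, 343 and 831 CPM in Ag and at 791, 731, 758, 1019 and 805 CPM in Ag+Costim. Here Ag 5 exceeded 4 of the 5 Ag+Costim libraries, so the groups overlapped. Nolc1, a chaperone of snoRNPs, had a log2 fold change of 0.85 ± 0.35 (SE) and overlapped through Ag 5.

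Npm3 and Npm1 could be compared within each library, a ratio chosen after the values had been seen. Npm3 had 2.70, 3.76, 3.06, 3.19 and 2.41 counts per 100 Npm1 counts in Ag and 6.87, 7.28, 8.22, 5.45 and 5.40 in Ag+Costim. The groups did not overlap, and the mean ratio was 2.20 times as high in Ag+Costim (3.02 ± 0.51 and 6.65 ± 1.22, SD, n = 5 each). Ncl per 100 Npm1 counts, by contrast, overlapped (88.0 to 140.0 in Ag and 127 to 139 in Ag+Costim). Per transcript length, on a TPM scale (counts divided by transcript length and scaled to a common total), Npm1 was the most abundant of the 46 in Ag+Costim at 907 ± 119 TPM (SD, n = 5), and Npm3 was at 93.0 ± 11.2 TPM, from 28.6 TPM in Ag. By CPM, Ncl was above Npm1 in Ag+Costim (means of 1092 and 821). Their mean annotated lengths were 7845 and 1428 bases, so the order per length depends on the annotated transcript ends. Counts of Npm1 are uncertain where processed pseudogenes carry near-identical sequence. An exon of the antisense gene Gm15491 overlaps that of Npm3 on the other strand, and its reads cannot be told apart from those of Npm3 here, because the sources used state no strand setting for the counting.

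**Figure D4:**
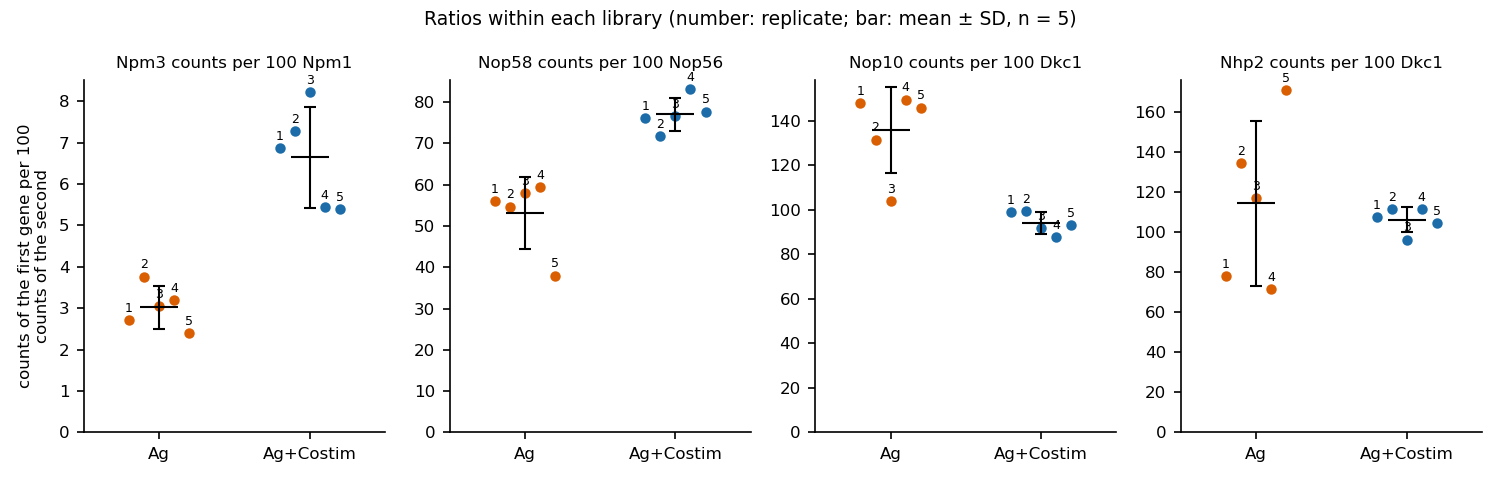
Counts of 1 factor per 100 counts of another in the same library (vertical, from 0) for 4 pairs in Ag (orange) and Ag+Costim (blue), numbered by replicate, with mean and SD. The groups did not overlap for Npm3 to Npm1 (3.02 and 6.65), Nop58 to Nop56 (53.2 and 77.0) and Nop10 to Dkc1 (136 and 94.2), and overlapped for Nhp2 to Dkc1.

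The mean level of the RNA polymerase I genes varied less between Ag libraries than that of the other roles. The SD of their mean log2(CPM + 1) over the 5 Ag libraries was 0.18, against 0.50 to 0.84 in the other 5 roles. Tcof1 encodes treacle, a nucleolar protein needed for transcription of ribosomal DNA, and was at 133, 229, 176, 151 and 243 CPM in Ag and at 283, 294, 307, 351 and 342 CPM in Ag+Costim. All Ag+Costim libraries lay above all Ag libraries, and the log2 fold change was 0.76 ± 0.19 (SE, BH adjusted p of 0.169 in edgeR and 0.00226 in DESeq2). Polr1a, the largest catalytic subunit, was at 27.9, 18.8, 29.8, 32.6 and 16.9 CPM in Ag and at 40.3, 39.7, 36.2, 48.3 and 42.7 CPM in Ag+Costim. In contrast to most factors, Ag 2 and Ag 5 were the lowest Ag libraries for Polr1a. Polr1b, the second-largest subunit, overlapped through Ag 2 alone (log2 fold change 0.68 ± 0.22, SE). Polr1c, a subunit shared with RNA polymerase III, was at 26.7, 43.1, 33.0, 30.3 and 48.7 CPM in Ag and at 41.7, 45.0, 45.8, 43.4 and 41.9 CPM in Ag+Costim. Its highest value of all 10 libraries was in Ag 5, and its log2 fold change of 0.26 ± 0.17 (SE) was near the median of genes at 10 CPM or more.

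Of the box C/D core proteins, Nop58 stood apart from its partners. Nop58 and Nop56 form a heterodimer that holds the guide RNA, and Fbl is fibrillarin, the methyltransferase. Nop58 was at 59.9, 148, 98.5, 61.9 and 128 CPM in Ag and at 225, 213, 219, 295 and 237 CPM in Ag+Costim. The groups were well separated, with a log2 fold change of 1.26 ± 0.26 (SE, BH adjusted p of 0.141 in edgeR and 0.000256 in DESeq2), the second-largest of the 46. Nop56 was at 107, 271, 170, 104 and 336 CPM in Ag and at 296, 296, 286, 355 and 305 CPM in Ag+Costim, with Ag 5 above 4 of the 5 Ag+Costim libraries. Fbl was at 53.9, 153, 107, 54.2 and 167 CPM in Ag and at 153, 160, 169, 204 and 176 CPM in Ag+Costim, with Ag 2 and Ag 5 inside the Ag+Costim range. Their log2 fold changes were 0.64 ± 0.32 and 0.68 ± 0.32 (SE). Nop58 per 100 Nop56 counts was 55.9, 54.6, 58.0, 59.4 and 37.9 in Ag and 76.0, 71.8, 76.6, 83.1 and 77.7 in Ag+Costim, without overlap and 1.45 times as high on average. Nop58 per 100 Fbl counts was also without overlap (76.3 to 114 in Ag and 130 to 148 in Ag+Costim), whereas Nop56 per 100 Fbl counts was 158 to 201 and 169 to 194. Per length, Nop58 was at 95.5 ± 19.5 TPM in Ag+Costim, below Nop56 at 252 ± 20.2 TPM and Fbl at 219 ± 22.7 TPM (SD, n = 5). This order depends on mean annotated lengths of 7650 (Nop58), 1983 (Nop56) and 1202 bases (Fbl).

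The 4 box H/ACA core proteins all overlapped between groups, and none was called in edgeR or DESeq2. Dkc1 is dyskerin, the pseudouridine synthase, and was at 72.6, 173, 106, 74.0 and 195 CPM in Ag and at 186, 179, 193, 226 and 201 CPM in Ag+Costim. Only Ag 5 reached the Ag+Costim range, and the log2 fold change was 0.67 ± 0.28 (SE). Gar1 was at 15.1, 57.2, 32.0, 18.2 and 62.0 CPM in Ag and at 56.2, 58.5, 61.4, 75.4 and 63.1 CPM in Ag+Costim (log2 fold change 0.77 ± 0.37, SE). Nhp2 was at 56.7, 233, 125, 52.9 and 334 CPM in Ag and at 200.2, 199, 186, 253 and 210 CPM in Ag+Costim. Ag 5 thus exceeded every Ag+Costim library for Nhp2 (log2 fold change 0.39 ± 0.46, SE). Nop10 had the lowest fold change of the 46, with 107, 228, 111, 111 and 285 CPM in Ag and 184, 177, 178, 199 and 187 CPM in Ag+Costim. Its log2 fold change of 0.14 ± 0.29 (SE) was below 0 when libraries were scaled by total counts (-0.03) or by the upper quartile (-0.05). Within a library, Nop10 had 148, 132, 104, 150 and 146 counts per 100 Dkc1 counts in Ag and 99.0, 99.2, 91.9, 87.8 and 93.1 in Ag+Costim, so this ratio was lower in every Ag+Costim library, at 0.694 times the Ag mean. Per length the 4 core proteins of the particle were at 323 ± 35.9 (Nhp2), 255 ± 9.97 (Nop10), 115 ± 8.58 (Dkc1) and 75.9 ± 8.01 TPM (Gar1) in Ag+Costim (SD, n = 5).

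The 15 small-subunit factors had a median log2 fold change of 0.65 (0.38 to 0.95), and 6 of them did not overlap between groups. Utp15, a subunit of the UTP-A complex that joins the nascent precursor, was at 31.0, 40.4, 48.3, 31.0 and 49.6 CPM in Ag and at 67.5, 66.5, 67.1, 77.7 and 74.8 CPM in Ag+Costim. Every Ag+Costim value exceeded every Ag value, and the log2 fold change of 0.82 ± 0.16 (SE) had a BH adjusted p of 0.140 in edgeR and 0.000761 in DESeq2. Heatr1, another protein of that complex, was at 37.3, 55.7, 65.5, 38.0 and 53.9 CPM in Ag and at 87.5, 102, 71.7, 122 and 102 CPM in Ag+Costim. Its groups were also separate, with a log2 fold change of 0.95 ± 0.20 (SE). Wdr43, which acts with them, Nat10, the acetyltransferase that modifies 18S ribosomal RNA, Tsr1, a factor of late 40S maturation, and Rrp12, a factor of subunit export, made up the others without overlap, with log2 fold changes of 0.65, 0.74, 0.80 and 0.95. Noc4l, with the lowest fold change in this role, was at 40.0, 102, 58.9, 42.7 and 98.2 CPM in Ag and at 89.5, 82.9, 89.6, 95.4 and 87.5 CPM in Ag+Costim. Ag 2 and Ag 5 were above all Ag+Costim libraries for Noc4l (log2 fold change 0.38 ± 0.27, SE). The remaining 8, Bysl, Ltv1, Utp18, Utp20, Wdr75, Nob1, Rrp9 and Nop14, had log2 fold changes of 0.49 (Nop14) to 0.82 (Bysl).

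The 16 large-subunit factors had a median log2 fold change of 0.46 (0.29 to 0.89), and only Rrp1b and Nop2 did not overlap. Rrp1b, a nucleolar protein of the 60S pathway, was at 22.7, 50.4, 37.2, 27.2 and 61.4 CPM in Ag and at 66.6, 67.1, 70.3, 85.8 and 78.5 CPM in Ag+Costim. The log2 fold change was 0.89 ± 0.26 (SE, BH adjusted p of 0.204 in edgeR and 0.0211 in DESeq2). Nop2, the methyltransferase of 28S ribosomal RNA, had a log2 fold change of 0.81 ± 0.28 (SE) with 36.7 to 93.9 CPM in Ag against 98.7 to 138 CPM in Ag+Costim. Noc3l was at 13.2, 9.93, 20.9, 11.6 and 15.8 CPM in Ag and at 20.6, 22.0, 22.3, 30.5 and 20.8 CPM in Ag+Costim, and Ag 3 alone, not Ag 2 or Ag 5, reached the Ag+Costim range. Nip7, with the lowest fold change of this role, was at 41.2, 95.8, 55.5, 45.4 and 122 CPM in Ag and at 87.2, 81.9, 81.6, 101.4 and 87.5 CPM in Ag+Costim (log2 fold change 0.29 ± 0.29, SE). The 3 proteins of the PeBoW complex, which acts in 28S maturation, had log2 fold changes of 0.63 ± 0.32 (Bop1), 0.45 ± 0.22 (Pes1) and 0.34 ± 0.22 (Wdr12, SE), and their ratios to one another overlapped between groups. Their levels per length in Ag+Costim were 145 ± 11.0 TPM (Bop1), 63.0 ± 3.99 TPM (Pes1) and 21.0 ± 3.01 TPM (Wdr12, SD, n = 5). The Wdr12 value rests on a mean annotated length of 7128 bases. Its distal last-exon segment of 7083 bases was little used in Ag+Costim (a fraction of 0.0416, as given further on). That length may thus be too long and the Wdr12 TPM too low, so its rank below Bop1 and Pes1 is uncertain. For 11 of the 16, both Ag 2 and Ag 5 were at or above the lowest Ag+Costim library.

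Which Ag libraries overlapped Ag+Costim went with transcript length. Length here is the mean annotated length of a gene's transcripts weighted by their counts. For Wdr12, placed at 4000 bases or more and with overlap between groups, this length may be too long, as given above. Of the 11 factors at 4000 bases or more, 9 did not overlap between groups, against 18.3% of the 2260 protein-coding genes of that length at 10 CPM or more. Of the 16 factors of 2500 to 4000 bases it was 3 (17.9% of 2456 genes), of the 10 factors of 1500 to 2500 bases 0 (4.804% of 2040 genes), and of the 9 factors under 1500 bases 1, Npm3 (0.639% of 1409 genes). In Ag 5 the median log2 ratio to the Ag+Costim mean was 0.16 for factors under 1500 bases and -0.58 for factors of 4000 bases or more, and in Ag 2 it was -0.02 and -0.54. In Ag 1 it was -1.66 and -1.35, in Ag 3 -0.75 and -0.62, and in Ag 4 -1.65 and -1.17. Protein-coding genes as a whole showed the same order, from 0.48 to -0.42 in Ag 5, from 0.21 to -0.20 in Ag 2 and from -0.70 to -0.30 in Ag 1. Over the 46 factors Spearman's rho of that ratio with length was -0.60 in Ag 5 and -0.49 in Ag 2, and over 8165 genes it was -0.71 and -0.43. These are descriptions over genes of the same libraries, and the part of length in the levels of Ag 2 and Ag 5 was not tested.

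**Figure D5:**
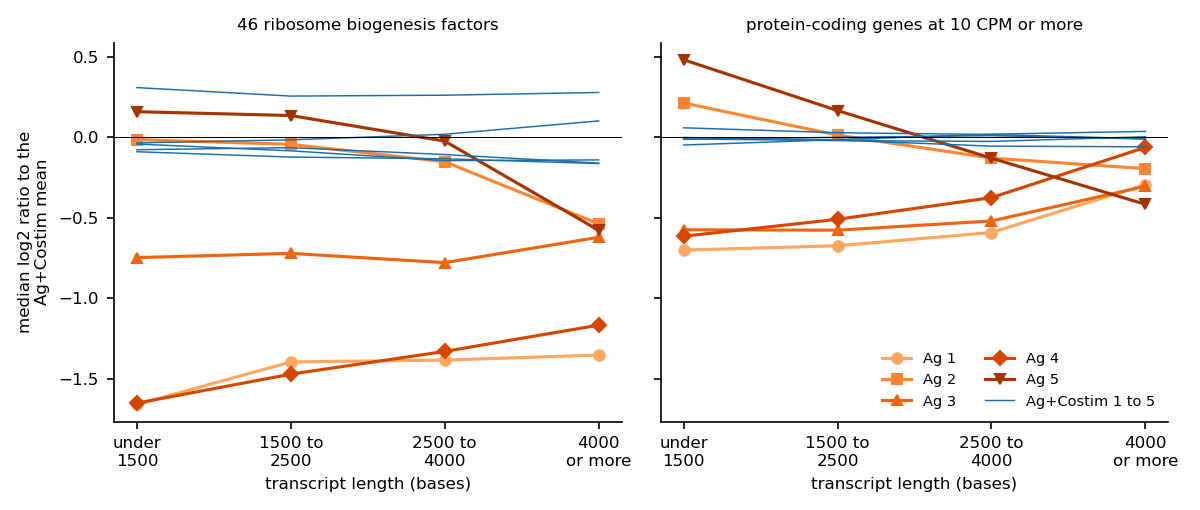
Median log2 ratio of each library to the mean of the Ag+Costim libraries (vertical; for an Ag+Costim library, of the other 4) by transcript length (horizontal, 4 bins) for the 46 factors (left) and for protein-coding genes at 10 CPM or more (right). Ag 2 and Ag 5 slope down with length, from 0.16 to -0.58 for the factors in Ag 5, and Ag 1 and Ag 4 are at -1.17 or below for the factors in every bin.

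A wider set of 100 further ribosome biogenesis genes, listed by role, had a median log2 fold change of 0.44, with 94 above 0 and 6 below (75.6% of genes at 10 CPM or more were above 0). At an unadjusted p under 0.05, 37 were higher and 1 lower (20.2% of genes at 10 CPM or more were higher). In 12 of the 100 all Ag+Costim libraries lay above all Ag libraries, which is near the share of genes at 10 CPM or more (11.3%). No gene of the set passed the adjusted threshold in edgeR, and DESeq2 called 12 higher and 0 lower (8.27% of genes at 10 CPM or more were called higher). The 12 further genes of RNA polymerase I had a median of 0.25, with 0 of 12 free of overlap, from Ttf1, the termination factor (34.1 ± 6.01 CPM in Ag against 32.6 ± 2.15 CPM in Ag+Costim, SD, n = 5 each), to Cd3eap, a polymerase subunit (12.9 ± 5.02 and 20.9 ± 2.03 CPM). The 9 genes of snoRNP assembly had a median of 0.64, from Pih1d1 (62.6 ± 35.6 and 72.4 ± 3.63 CPM) to Naf1, an assembly factor of box H/ACA particles (1.67 ± 0.47 and 3.38 ± 0.83 CPM), the only one without overlap. The 40 small-subunit genes had a median of 0.44, with 6 free of overlap, from Diexf (6.30 ± 1.62 and 5.37 ± 0.45 CPM) to Nol10 (23.8 ± 7.87 and 44.9 ± 5.02 CPM). The 39 large-subunit genes had a median of 0.47, with 5 free of overlap, from Mdn1, the giant ATPase that remodels the 60S precursor (22.9 ± 5.60 and 16.8 ± 2.41 CPM), to Pelp1, a subunit of the complex that recruits it (17.2 ± 6.19 and 34.1 ± 3.53 CPM). Mdn1 was the one gene lower at an unadjusted p under 0.05 (log2 fold change -0.45 ± 0.20, SE), and Pelp1 had a log2 fold change of 0.98 ± 0.23 (SE).

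Transcript usage was tested for 40 of the 46 factors, and none was called (0.297% of the 10441 genes tested). Tcof1 had the lowest gene-level p of them, with a BH adjusted p of 0.600 in edgeR's diffSpliceDGE. Its transcript Tcof1-205 made up 28.6%, 8.24%, 5.83%, 31.4% and 1.89% of the Tcof1 counts in Ag and 40.5%, 41.01%, 31.7%, 43.2% and 41.1% in Ag+Costim. The mean share was 24.3 percentage points higher in Ag+Costim, but the groups almost met, at 31.4% in Ag 4 and 31.7% in Ag+Costim 3. In Ag 5 Tcof1-204 took 86.2% instead. Gnl3 encodes nucleostemin, and its transcript Gnl3-204, which the annotation types as subject to nonsense-mediated decay, took 51.6%, 24.0%, 0%, 31.5% and 38.4% of Gnl3 counts in Ag and 45.6%, 40.8%, 44.9%, 42.6% and 40.1% in Ag+Costim, with overlap. Of the 73 transcripts that made up 5% or more of a factor's counts in a group, only Tcof1-205 and Polr1b-202 (91.1% to 99.2% in Ag and 99.5% to 99.9% in Ag+Costim) had shares without overlap. How often transcripts of other genes were without overlap was not counted. Transcripts typed as retained introns took 6.12%, 6.45%, 5.06%, 4.65% and 3.78% of the factors' counts in Ag and 4.99%, 4.51%, 4.59%, 3.90% and 4.54% in Ag+Costim, which overlapped.

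Exon inclusion within these genes differed little between the groups. The deposited table of splicing events gave 1 percent spliced in (PSI, a fraction from 0 to 1) per group, so there is no replicate error and no test. It held 672 events in 44 of the 46 genes, and 15 events in 7 genes differed by more than 0.05 between groups (6.71% of the events in genes at 10 CPM or more). None of the 615 core exon events did so, against 1.89% of core exons in genes at 10 CPM or more, and the largest core exon difference was 0.0336. The differences lay at transcript ends, with 12 of 20 tandem 3′ end events in 6 genes (31.5% in genes at 10 CPM or more). Segments of 1 last exon mirror each other, so these are pairs and not independent events. In Wdr74, a factor of 60S maturation, PSI of the last-exon segment at chr19:8740402-8740618 (mm10) was 0.467 in Ag and 0.322 in Ag+Costim. That of the adjoining segment, which is only 6 bases long, was 0.533 and 0.678. In Nifk, a partner of Ki-67, the distal segment at chr1:118332942-118333822 was at 0.885 and 0.996. In Wdr12 the distal segment at chr1:60069785-60076867 was at 0.126 and 0.0416. Noc2l, Nop16 and Polr1c had end pairs that differed by 0.0686 to 0.0875 in the segment where it was higher. The distal segment of the Noc2l pair is only 13 bases long. The other 3 events were an alternative start pair in Polr1b (0.885 and 0.991 for the downstream segment) and an alternative donor in Wdr12 (0.367 and 0.254).

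Several of these genes share their sequence with other annotated RNAs. Exons of 18 of the 46 overlap exons of another gene, in 17 of them on the opposite strand, among them Npm3, Nop56 (Idh3b), Nhp2 (Rmnd5b), Bysl (Ccnd3) and Heatr1 (Lgals8), and their counts are uncertain to that extent. The bounds of 7 factors hold 21 annotated small nucleolar RNA genes, 5 of them in Nop56, 4 in Nop58, 3 each in Ncl, Wdr43 and Gnl3, 2 in Tsr1 and 1 in Dkc1. Of these 7 host genes, Ncl, Nop58, Wdr43 and Tsr1 were among the 13 without overlap between groups, and Nop56, Dkc1 and Gnl3 were not.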

How the data were processed

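Gene and transcript counts of 5 Ag and 5 Ag+Costim libraries were analysed. The authors aligned reads to mm10 with HISAT2 2.1.0 and sorted them with SAMtools 1.9, and deposited the estimated counts (expected counts) that StringTie 2.1.0 derived from coverage, not normalized. The authors also deposited PSI, a fraction, as 1 value per group from Whippet. The table's PSI difference and probability columns are comparisons of the study's own and were not used, so the planned probability threshold was not applied. All 55536 gene identifiers matched GENCODE release M21, and 26248 numbered entries (0.0458% to 0.308% of counts) and 97 entries at 0 were left out.

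Estimated counts, which are whole numbers as deposited, were tested with edgeR 4.0.16 in R 4.3.3 (quasi-likelihood, filterByExpr by group, TMM, robust dispersions), with BH adjustment over 24262 genes. CPM values use TMM factors. DESeq2 1.42.0 and limma 3.58.1 (voom with weights) were alternatives. Transcript usage was called at a gene-level BH under 0.05 with a share change above 0.1. TPM was computed from transcript counts divided by annotated length. The scripts were tested on simulated data. The members and lists, and the list of ribosomal proteins, were chosen with earlier results of these data known. Named by rule in each role were the 2 factors with the smallest p, the one with the lowest fold change and any with BH under 0.05, and in each wider list the highest and lowest gene. Nhp2, Nop2, the within-library ratios and the length bins were chosen after values had been seen. Libraries differ as individual mice per the study. Numbers do not pair libraries across groups (correlations of same-numbered deviations of -0.33 to 0.18). Depth is known only as coverage-based totals, so no counting intervals are given. Counts on near-identical copies and overlapping genes cannot be separated.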

Additional observations from a re-analysis of the deposited data

Results flagged for a closer look

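In groups of 5, a highest or lowest library was marked when its gap to the nearest other exceeded 0.71 of the group's range. Of 106 groups examined (46 factors and 7 list means in each condition), 8 were marked, and chance marks about 1 in 20. All 8 were the highest value of Ag+Costim 4. They were Npm1 at 1019 CPM, Nop56 at 355 CPM, Rrp9 at 90.02 CPM, Tsr1 at 114 CPM, Mrto4 at 86.2 CPM, Noc3l at 30.5 CPM, the mean log2(CPM + 1) of the 4 nucleolar chaperones at 8.56 and that of the 16 large-subunit factors at 6.71. The 8 marks are not independent, since they come from 1 library and both list means include marked factors. Ag+Costim 4 was the highest Ag+Costim library for 38 of the 46 factors, and the share of all genes with this order was not counted.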

How the results depend on the processing

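The number of factors past a BH adjusted p of 0.05 was 0 in edgeR under each other scaling, without the low-count filter, without each library in turn (0 to 0) and with a replicate block (0, median log2 fold change 0.75). It was 12 in DESeq2's Wald test and 46 in voom with quality weights, where the median log2 fold change was 1.26 and 46 had an unadjusted p under 0.05. Without Ag 2 and Ag 5 (added after seeing the data), 46 were called, 46 did not overlap and 46 had an unadjusted p under 0.05, and the median was 1.26 (genes at 10 CPM or more: median 0.58, 61.1% without overlap and higher). The 13 factors without overlap became 7 with upper-quartile scaling and 24 without the filter, and 13 to 24 without 1 library, with 24 without Ag 5. The 23 with an unadjusted p under 0.05 became 14 with upper-quartile scaling, and 15 to 41 without 1 library, with 41 without Ag 5 and 15 without Ag+Costim 4. The median over the factors exceeded the median of genes at 10 CPM or more by 0.29 to 0.50 in the edgeR fits with all libraries or without 1, while scaling moved the latter from 0.24 to 0.00 (total counts). The fold change of Nop10 was -0.0331 when scaled by total counts and -0.0530 by the upper quartile, and no other of the 18 named fold changes turned. No factor was called for transcript usage under any alternative. PSI events numbered 7 at a difference above 0.1. The planned probability alternative was not run. The Ag libraries' spread limits every comparison, and the cause of these changes was not tested.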
